A study of Mus musculus with 69 samples.

Results

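The mitochondrial ribosomal protein genes are the nuclear genes named Mrps (small subunit) or Mrpl (large subunit) with a number. Members were the rows of the gene count table whose name has this form and which had 10 or more counts in at least 7 libraries. All 36 held genes with such a name met the count rule, out of 9930 gene records held, and each had 10 or more counts in all 69 libraries. The table as held ends on chromosome 8. Genes of this name that lie beyond it were not analysed, so the members are not the whole family. The small subunit gave 16 members and the large subunit 20.

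The mitochondrial ribosome (mitoribosome) makes the few respiratory chain proteins that mitochondrial DNA encodes. Its RNAs come from mitochondrial DNA, whereas its proteins are encoded in the nucleus, made in the cytosol and imported. The small subunit reads the messenger RNA, and the large subunit joins the amino acids and releases the chain through an exit tunnel. Some of its proteins descend from bacterial ribosomal proteins and others were gained in mitochondria; 23 members are of the former kind and 13 of the latter. Neurons, and hippocampal neurons among them, depend strongly on respiration.

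The data are RNA sequencing counts of the hippocampus of male mice, 1 library per animal. Animals were wildtype (wt) or knockout (ko) for Cdh13, the gene of T-cadherin, and were killed at weaning on postnatal day 22 (P22) or as adults on day 66 (P66). Control litters (Ctr) were only handled, and maternally separated litters (MS) were taken from the dam for 3 h daily from day 1 to day 14. At P22 there were 8 Ctr wt, 11 MS wt, 9 Ctr ko and 10 MS ko animals, and at P66 there were 7, 10, 7 and 7 in that order. Each group held animals of both cohorts named in the labels, least evenly in MS ko (2 and 8 at P22, 5 and 2 at P66). The labels do not say what sets the cohorts apart. No source used here gives the strain or the construction of the knockout allele, and Cdh13 itself was not analysed here, so genotypes rest on the labels. Rearing was assigned to whole litters, and the labels tie no animal to a litter. The errors of rearing comparisons may therefore be too small.

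Library totals over the part of the table held (chromosomes 1 to 7 and part of 8) were 11.3 to 16.4 M counts (M, mega), with a median of 13.3 M. Members took 0.253 to 0.297% of these counts. Marker genes of dentate gyrus and CA fields were present in every group, with 7 of the 7 held tested and summed levels between 2063 and 2875 CPM (counts per M counts of the held part). Choroid plexus markers varied widely within groups, from 52.8 to 624.5 CPM summed over 8 genes, and 7 libraries lay more than 2 (log2) from the median in that score. The score of cytosolic ribosomal protein genes set 6 libraries more than 0.2 (log2) from their group median, 5 of them above it. These 5 were MS wt P22 animal C1-51, MS ko P22 animal C2-23, MS ko P66 animal C1-56 and Ctr ko P22 animals C1-4 and C2-43 (cohort, then animal number). The other, MS ko P22 animal C2-36, lay below its group median. Counts of called members are given with and without all 6 libraries.

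The 36 members together were at much the same level in the 8 groups. Their summed level was 2603 ± 39.3 CPM (SD, n = 8) in Ctr wt, 2682 ± 140 (n = 11) in MS wt, 2666 ± 152 (n = 9) in Ctr ko and 2665 ± 134 (n = 10) in MS ko at P22. At P66 it was 2662 ± 61.01 (n = 7), 2699 ± 40.8 (n = 10), 2658 ± 55.1 (n = 7) and 2737 ± 136 (n = 7) in the same order. All 8 ranges overlapped. Spread within groups was small, with a median residual SD (log2) of 0.104 over members and a range of 0.0526 to 0.148. Over all tested genes the median was 0.148. Those include lowly counted genes, whereas no member had under 383 counts in any library. Genes of matched level were not compared.

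Per kilobase of the principal transcript, the highest members were Mrps21 at 138 CPM/kb, Mrpl20 at 135 and Mrpl33 at 126. Mrpl17 at 9.43, Mrps35 at 10.8 and Mrpl47 at 10.5 CPM/kb were lowest. These levels depend on the transcript taken: divided by the union of annotated exons, Mrpl33 moved from rank 3 to rank 33, while Mrps21 was at rank 2 and Mrpl20 at rank 6.

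The libraries highest in the members were also the highest in cytosolic ribosomal and respiratory genes. MS wt P22 animal C1-51 had the highest mean log2 CPM over members, 6.30 against a median of 6.10 over all libraries, with 33 of 36 members above its group median. It ranked 3 of 69 for cytosolic ribosomal proteins and 1 for nuclear subunits of oxidative phosphorylation. The 5 libraries ranked 1 to 5 for the members also held ranks 1 to 5 in both other groups of genes. Below them this varied. MS wt P22 animal C1-29 ranked 10 for members, 8 for cytosolic ribosomal proteins and 7 for oxidative phosphorylation. MS wt P66 animal C2-55 ranked 8, 23 and 48 in the same order. These are levels of the same libraries on the same totals, and the source of this shared variation was not tested.

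**Figure D1:**
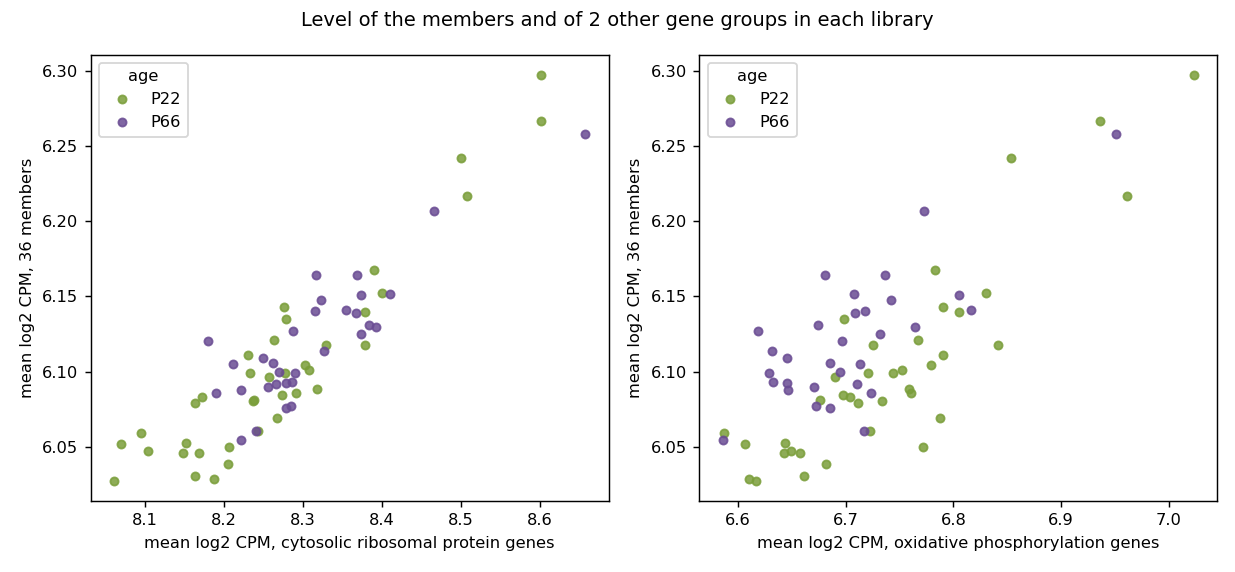
Mean log2 CPM of the 36 members (vertical axis) against the mean log2 CPM of cytosolic ribosomal protein genes (left) and nuclear oxidative phosphorylation genes (right), 1 point per library, coloured by age. The 5 libraries highest in the members, from 6.22 to 6.30, are also the 5 highest on both horizontal axes.

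Between weaning and adulthood the set split: 10 members rose, 3 fell and 23 did not pass the test. Small-subunit genes Mrps9, Mrps15 and Mrps17 and large-subunit genes Mrpl23 and Mrpl48 rose by 1.08 to 1.11-fold, and Mrpl20 and Mrpl41 of the large subunit were 1.09-fold and 1.08-fold lower at P66. Of the small subunit 7 of 16 members rose and 0 fell, and of the large subunit 3 of 20 rose and 3 fell; the difference between subunits was not tested. Genes of bacterial descent gave 7 rises and 2 falls of 23, and mitochondria-specific ones 3 and 1 of 13. By edgeR quasi-likelihood with Benjamini-Hochberg adjustment over 7131 genes, 52% of all genes passed for age, 26.2% upward and 25.8% downward. The 36.1% of members called is below that background. Upward, 27.8% of members is close to the share of all genes, and downward 8.33% is below it. These differences were not tested. Member changes were small, with a median size of 0.0466 (log2) against 0.0960 over all genes. None of the 36 exceeded 0.15 in size, whereas 32.9% of all genes did. These sizes too were not compared at matched level. The median signed change was 0.0084 over members and 0.0089 over all genes. In whole tissue, fewer cells of a type and less RNA per cell cannot be told apart.

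**Figure D2:**
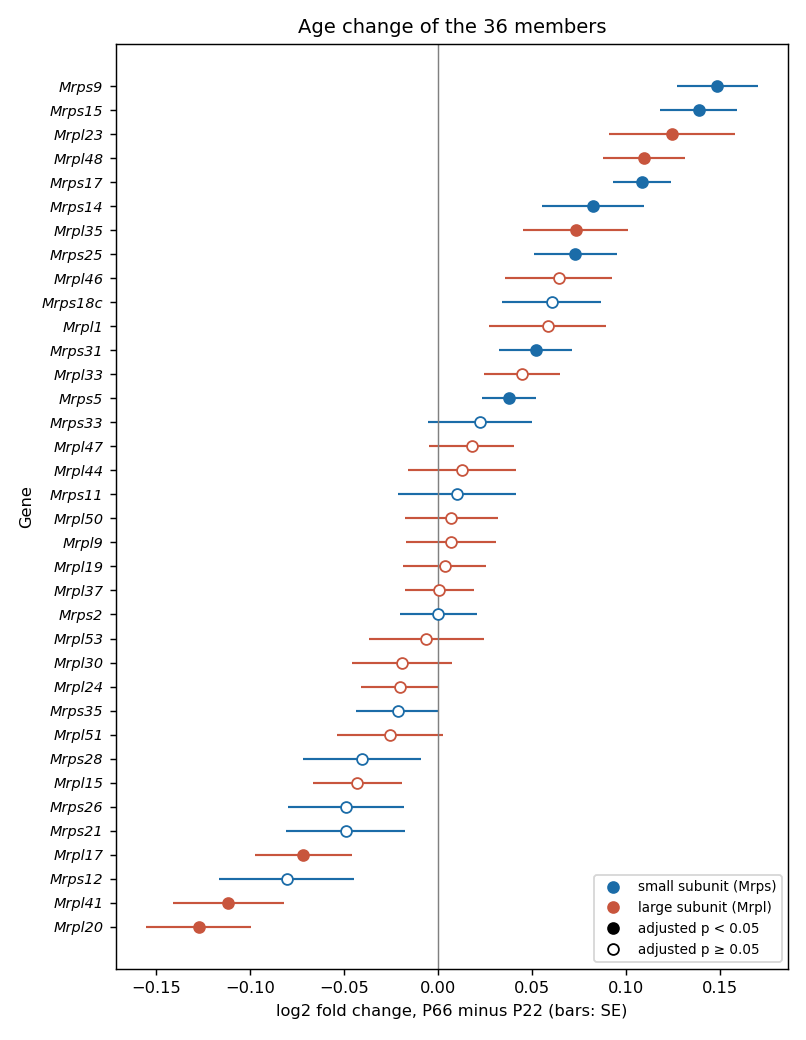
Log2 fold change with age (P66 minus P22, bars are SE) of each of the 36 members, ordered by size, with small-subunit genes in blue and large-subunit genes in red. Filled points mark the 13 genes with an adjusted p under 0.05, and the values run from -0.13 for Mrpl20 to 0.15 for Mrps9.

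In the small subunit, Mrps9 (uS9m, a protein of the subunit head) had the largest rise. Over the 38 animals at P22 its level ran from 92.9 to 126.7 CPM with a median of 104.2, and over the 31 at P66 from 101.4 to 140.8 with a median of 118.0. The ranges overlapped, but 30 of 31 adults lay above the P22 median. Its log2 change was 0.15 ± 0.0215 (SE), with an edgeR adjusted p = 2.5e-08. Mrps15 (uS15m, which binds the subunit's ribosomal RNA) ran from 64.4 to 81.2 CPM at P22 (median 73.0) and from 70.1 to 87.2 at P66 (median 79.6). It rose by 0.14 ± 0.0206, with 29 of 31 adults above the P22 median. Mrps17 (uS17m, another RNA-binding protein) rose by 0.11 ± 0.0155 and had the smallest adjusted p among members, 1.87e-08. All 31 adults, from 114.1 to 135.0 CPM, lay above its P22 median of 113.7, though the P22 range of 106.2 to 126.9 overlapped theirs. Mrps14 (uS14m) rose by 0.08 and Mrps25, a mitochondria-specific protein, by 0.07. The other 2 called rises were smaller, 0.05 for Mrps31 and 0.04 for Mrps5. Mrps5 no longer passed when any of 14 single libraries was left out, and Mrps31 when Ctr wt P66 animal C2-58 was.

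In the large subunit, Mrpl48, a mitochondria-specific protein of the central protuberance, ran from 126.4 to 175.8 CPM at P22 (median 141.6) and from 143.5 to 184.9 at P66 (median 154.9). It rose by 0.11 ± 0.0218 (edgeR adjusted p = 2.07e-05), and 31 of 31 adults were above the P22 median. Mrpl23 (uL23m, at the rim of the exit tunnel) rose by 0.12 ± 0.0334, from a median of 46.7 to 51.5 CPM, with 28 of 31 adults above the P22 median. Mrpl35 rose by 0.07. Mrpl20 (bL20m, which binds the large ribosomal RNA) went the other way: P22 animals had 91.9 to 141.5 CPM (median 107.2) and P66 animals 85.9 to 117.7 (median 97.7). It fell by 0.13 ± 0.0277 (edgeR adjusted p = 8.6e-05), with 30 of 31 adults below the P22 median. Mrpl41, a mitochondria-specific protein, fell by 0.11 ± 0.0296, from a median of 92.8 to 86.1 CPM, with 27 of 31 adults below. Mrpl17 (bL17m) fell by 0.07, and 21 of 31 adults were below its P22 median; without MS wt P22 animal C1-51 it changed by -0.06 and did not pass.

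**Figure D3:**
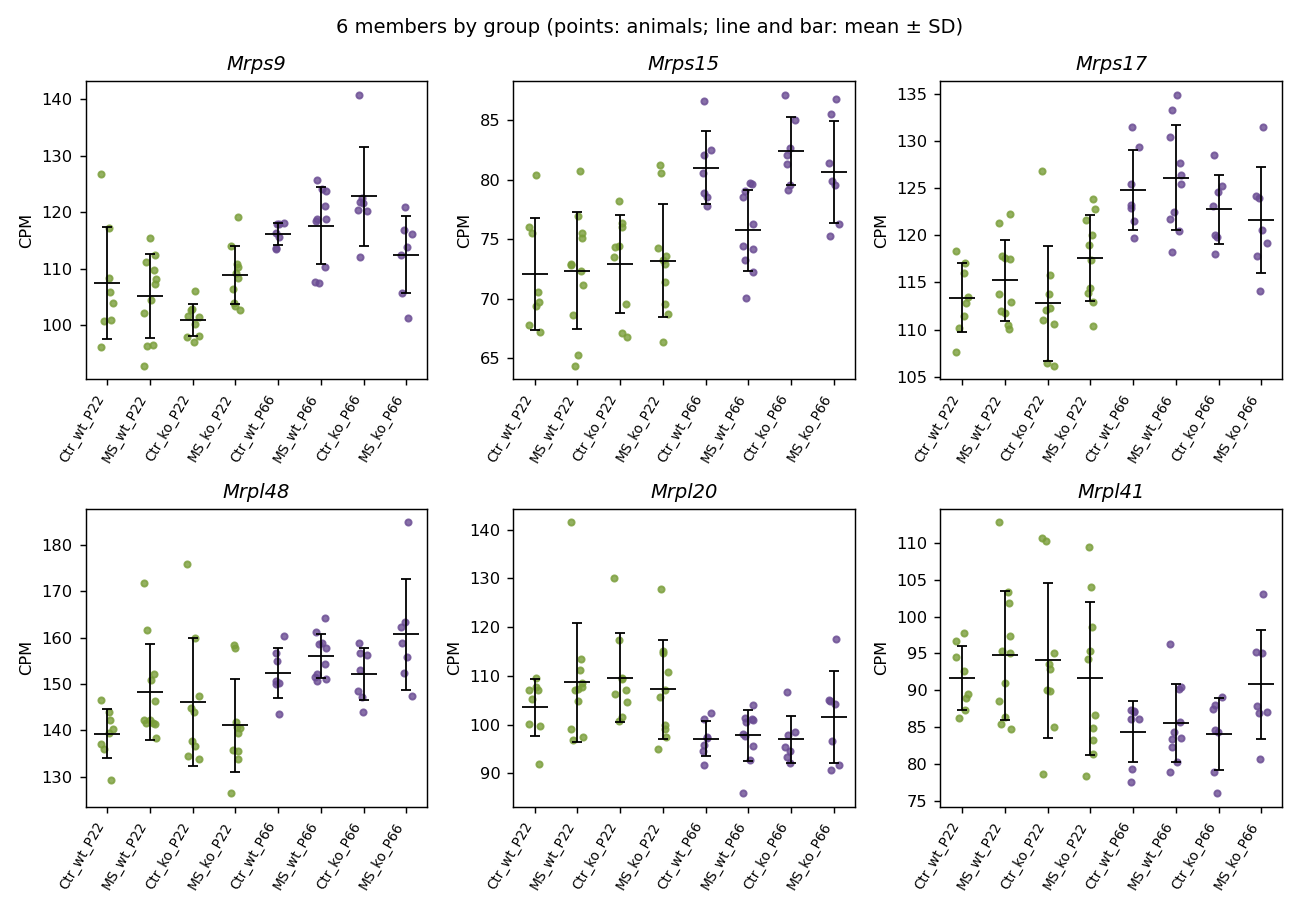
Level in CPM of 6 members in the 8 groups, P22 in green and P66 in purple; points are animals, and the line and bar give the mean ± SD. Mrps9, Mrps15, Mrps17 and Mrpl48 sit higher and Mrpl20 and Mrpl41 lower at P66, with overlapping ranges; the axes do not start at 0.

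The direction with age was the same in all 4 genotype and rearing groups for 10 of the 13 called members. The 13 were called on the average of these same 4 changes, so agreement in sign was favoured in advance. The share over all called genes is not given here. Taken group by group, 3 members rose and 0 fell in Ctr wt (18.9% of all genes passed), 4 rose and 2 fell in MS wt (30.8%), 5 rose and 3 fell in Ctr ko (28.1%), and 3 rose and 0 fell in MS ko (19.2%). Mrps15 changed by 0.17 in Ctr wt, 0.07 in MS wt, 0.18 in Ctr ko and 0.14 in MS ko. Mrps9 varied more, with 0.11, 0.16, 0.28 and 0.04 in the same order. Its P22 mean was lowest in Ctr ko at 100.9 ± 2.9 CPM (SD, n = 9), where its P66 mean was highest at 122.8 ± 8.7 (n = 7). That P66 mean includes animal C1-22 at 140.8 CPM, against 112.0 to 122.6 in the other 6. By edgeR, 0 members passed for a difference of the age change by genotype, by rearing or by both together, against 0%, 0.0421% and 0.0140% of all genes. An unadjusted p under 0.05 was found for 0, 3 and 4 of the 36 members, against 2.15%, 6.73% and 14% of genes. For Mrps9 the test of both together gave -0.29 ± 0.0860 with an adjusted p = 0.30; no other tool was run on these terms.

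Both cohorts gave fewer calls alone, among the members and over all genes. Over all genes 3707 of 7131 were called with both cohorts, 2176 of 7205 in cohort 1 and 2786 of 7237 in cohort 2. Among members cohort 1 gave 9 rises and 0 falls, all 9 among the 13. Cohort 2 gave 4 rises and 4 falls, 7 of them among the 13. Mrps9 changed by 0.15 and 0.17 in cohorts 1 and 2, Mrps15 by 0.16 and 0.11, Mrps17 by 0.13 and 0.09, and Mrpl48 by 0.12 and 0.11, and these 4 passed in each. Mrpl20 changed by -0.11 and -0.14 and Mrpl41 by -0.10 and -0.13, and both passed in cohort 2 alone. Without the 6 libraries far in the cytosolic ribosomal protein score, 13 members rose and 3 fell, with 3933 of 7147 genes called. Without the 7 far in the choroid plexus score 12 members rose and 4 fell, with 3696 of 7137 genes called. Each time all 13 were kept.

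Markers of some cell types moved with age by more than any member, and those of others by less. All 8 held markers of oligodendrocytes and myelin fell, with a median of -1.42 (log2), and their summed level ran from 2061 to 4950 CPM at P22 and from 887 to 2306 at P66. All 3 markers of newborn neurons and dividing cells fell (median -1.08), with summed levels of 265 to 379 CPM at P22 and 216 to 304 at P66. Meningeal markers gave 4 falls and 1 rise of 7, at 231 to 612 against 182 to 446 CPM, and the 7 of dentate gyrus and CA fields 5 rises and 2 falls, at 2063 to 2638 against 2294 to 2875 CPM. Summed levels of oligodendrocyte precursor markers (both fell) were 175 to 248 CPM at P22 and 140 to 171 at P66, and those of astrocyte markers (3 of 3 fell) 5604 to 7518 and 4563 to 6271. Endothelial markers gave 1 rise and 2 falls of 7 (552 to 692 against 521 to 643 CPM), and excitatory neuron markers 0 rises and 3 falls of 7 (5720 to 8531 against 5896 to 7284). Interneuron markers gave 1 rise and 5 falls of 9, at nearly the same summed level (2323 to 2918 against 2284 to 2986 CPM), and microglial markers 2 rises of 7 (373 to 503 against 397 to 528). Choroid plexus markers gave 0 calls of 8 (60.3 to 576 against 52.8 to 624.5 CPM) and ependymal markers 1 fall of 5 (9.05 to 53.4 against 9.62 to 42.8). The part of these shifts in the members' changes was not tested.

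In the wider machinery of mitochondrial translation, rises with age outnumbered falls among the called genes, again by small amounts. Of 3 tested mitoribosomal proteins with other names, Ptcd3 rose by 0.10 and Aurkaip1 by 0.08, and Dap3 differed by 0.0005. Of 13 genes that charge mitochondrial transfer RNAs, 5 rose and 0 fell. They were led by Gatb (0.15 ± 0.0204), a subunit of the enzyme that makes glutaminyl-tRNA, and the synthetases Ears2 (0.13), Tars2 (0.11) and Rars2 (0.10). Of 14 assembly and ribosomal RNA factors 6 rose and 3 fell, among them Fastkd2 (0.14), the RNA methyltransferase Nsun4 (0.14) and the GTPase Mtg2 (0.12). Mterf4, the partner of Nsun4 in assembly, fell by 0.10. Of 5 translation factors the recycling factor Mrrf alone passed, with a rise of 0.07. Genes of mitochondrial DNA upkeep gave 2 rises (Mterf1b 0.15, Tfb2m 0.08) and 1 fall (Ssbp1, which coats single-stranded mitochondrial DNA, -0.10) of 6. Of 4 regulators of mitochondrial biogenesis Gabpb2, a subunit of the ETS-family activator GABP, rose by 0.17.

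Nuclear respiratory chain genes gave more falls than rises. Of 36 oxidative phosphorylation genes 3 rose and 13 fell, with a median of -0.04; the largest changes were Cox7b2 (0.39), Cox6a2 (-0.34), Cox6a1 (-0.20) and Cox6b1 (-0.19). Cytosolic ribosomal protein genes gave 16 rises and 5 falls of 36, with a median of 0.06, led by Rplp0 (-0.30), Rpl22l1 (0.29), Rps21 (0.15) and Rpl27a (0.15). All list counts read against the same 52% of genes called.

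Promoters of 5 members called for age, 3 that rose and 2 that fell, are shown as examples of genes that moved in opposite directions, beside Mrpl9, which came nearest to a call for rearing, and Mrps12, which starts beside a synthetase gene. Each run is the 120 bases before the RefSeq start on GRCm38.p6, 5′ to 3′ on the gene's strand. Capitals mark matches to the ETS, NRF1 or YY1 motif given after the sequences (SP1 is left in lower case), and of these 7 runs that of Mrpl9 alone holds one.
Mrps9, up at P66, chr1:42851113-42851232, plus strand: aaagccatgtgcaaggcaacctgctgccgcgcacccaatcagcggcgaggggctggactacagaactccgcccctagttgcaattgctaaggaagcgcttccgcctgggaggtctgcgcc
Mrps15, up at P66, chr4:126046808-126046927, plus strand: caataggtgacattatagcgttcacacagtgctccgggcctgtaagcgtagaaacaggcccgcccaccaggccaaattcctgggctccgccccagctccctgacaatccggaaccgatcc
Mrps17, up at P66, chr5:129715377-129715496, plus strand: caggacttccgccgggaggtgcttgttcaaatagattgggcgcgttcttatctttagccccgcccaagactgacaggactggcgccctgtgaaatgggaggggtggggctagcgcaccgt
Mrpl20, down at P66, chr4:155802758-155802877, plus strand: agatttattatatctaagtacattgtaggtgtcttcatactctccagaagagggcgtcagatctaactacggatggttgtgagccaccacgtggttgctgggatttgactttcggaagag
Mrpl41, down at P66, chr2:24975099-24975218, minus strand: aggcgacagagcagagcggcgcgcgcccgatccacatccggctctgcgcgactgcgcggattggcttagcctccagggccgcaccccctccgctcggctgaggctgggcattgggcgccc
Mrpl9, chr3:94443216-94443335, plus strand: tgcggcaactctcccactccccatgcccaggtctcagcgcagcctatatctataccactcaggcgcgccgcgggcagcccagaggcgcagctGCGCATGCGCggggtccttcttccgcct
Mrps12, chr7:28741822-28741941, minus strand: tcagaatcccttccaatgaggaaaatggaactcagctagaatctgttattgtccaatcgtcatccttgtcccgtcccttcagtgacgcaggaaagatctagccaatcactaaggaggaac

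RefSeq promoters, 250 bases before to 50 after the start, were held for 32 of the 36 members and searched on both strands. The ETS motif CCGGAAG, a core that GABP-type factors recognise, was in 9 of 32 (28.1%), against 9.12% of 27025 promoters and 15.5% of the 5691 promoters of tested genes. The YY1 motif AAGATGGC was in 4 (12.5%, against 2.88% and 3.60%), and the NRF1 motif GCGCATGC in 3 (9.38%, against 2.81% and 4.43%). The SP1 motif GGGCGG was in 17 (53.1%, against 35.9% and 60.5%). The 2 NRF1 matches of Mrpl9, 28 and 26 bases before its start on opposite strands, overlap each other. In the full windows Mrps9, Mrps15, Mrps17, Mrpl48, Mrpl20 and Mrpl41 hold no ETS, NRF1 or YY1 match of these letters, which says nothing of the factors. Of the other called members, Mrpl17, which fell, has an ETS and an NRF1 match, Mrpl35, which rose, has a YY1 match, and Mrpl23, Mrps14, Mrps25, Mrps31 and Mrps5 have none of the 3. Mrps12 has an ETS and a YY1 match outside the run shown.

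Several members share their start region with a neighbour. On GENCODE M21 14 members have the start of another protein-coding gene on the opposite strand within 1000 bases, and 11 overlap a protein-coding gene. The shares over all genes were not counted. No source used here says whether counting used strand, so reads of overlapping genes cannot be told apart. Overlaps are of whole gene spans, introns included. The longest is that of Mrpl33 with Rbks, over 39946 bases. Mrpl48 overlaps Rab6a over 892 bases, Mrps25 overlaps Nr2c2 over 4770 and Mrpl9 overlaps Oaz3 over 598. The members Mrpl46 and Mrps11 overlap each other over 413. Mrps12, whose product (uS12m) lies at the decoding centre, starts 172 bases from Sars2, the mitochondrial seryl-tRNA synthetase. Mrps12 differed by -0.08 ± 0.0358 with age (edgeR adjusted p = 0.053) and Sars2 by -0.003 ± 0.0340, at 65.2 ± 7.1 and 23.2 ± 2.3 CPM (SD, n = 69).

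At P22 neither the knockout nor separation changed a member that passed the test. For knockout minus wildtype (19 against 19 animals) the smallest p belonged to Mrpl50, a mitochondria-specific large-subunit protein, at -0.08 ± 0.0349, followed by Mrps12 (0.08), Mrpl44 (0.07), Mrpl1 (-0.05) and Mrpl23 (0.06), each with an edgeR adjusted p = 0.832. By edgeR 0 of 36 members and 0% of 7036 genes were called; 1 member and 4.11% of genes had an unadjusted p under 0.05. For separated minus control (21 against 17 animals) 35 of 36 members had a positive sign, against 55.1% of all genes, with a median of 0.023. By genotype, in wildtype animals 31 of 36 were positive (median 0.054), against 51.9% of all genes. In knockout animals 16 of 36 were positive (median -0.0063), against 54.7%. The median over both was 0.0193 in cohort 1 alone and 0.0134 in cohort 2 alone. As covariates, choroid plexus and myelin scores gave 0.0223 and the cytosolic ribosomal protein score 0.0063. Without the libraries far in the choroid plexus score it was 0.027, and without those far in the cytosolic ribosomal protein score 0.0191. Mrps28 (0.08 ± 0.0402), Mrps17 (0.04), Mrps31 (0.05), Mrps18c (0.06) and Mrps9 (0.04) had the smallest p, with an adjusted p = 0.999. Here too 0 members and 0% of genes were called, and 1 member and 3.08% of genes had an unadjusted p under 0.05. The same sign was seen for 36 of 36 cytosolic ribosomal protein genes and 27 of 36 oxidative phosphorylation genes, so positive signs were also common outside the members. Myelin markers were higher in separated animals in sign for 8 of 8 (median 0.17, none called), and their part was not tested.

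The interaction at P22, separation in knockout minus separation in wildtype animals, called 0 members and 0% of genes, with 2 members and 8.47% of genes at an unadjusted p under 0.05. Mrps9 (0.15 ± 0.0626) and Mrpl1 (0.15 ± 0.0752) had positive and Mrpl24 (-0.10), Mrpl48 (-0.13) and Mrps14 (-0.13) negative values. The median over members was -0.052, but -0.0036 without the 6 libraries far in the cytosolic ribosomal protein score, 5 of which are of P22. It was -0.024 in cohort 2 and -0.095 in cohort 1 alone, -0.110 with choroid plexus and myelin scores as covariates, and 0.0038 with the cytosolic ribosomal protein score. DESeq2 and limma-voom called 0 members in each of the 3 comparisons at P22.

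In adults the knockout again gave no called member. For knockout minus wildtype at P66 (14 against 17 animals) Mrpl33 (-0.06 ± 0.0295), Mrps17 (-0.05), Mrps26 (0.07), Mrps15 (0.05) and Mrps33 (0.05) had the smallest p, with adjusted p between 0.590 and 0.641. By edgeR, DESeq2 and limma-voom 0 members passed, against 0.0571% of 7001 genes by edgeR. An unadjusted p under 0.05 was found for 4 members and 8.36% of genes. At P66 the interaction called 0 members and 0% of genes by edgeR and 0 members by the other tools, with 2 members and 4.53% of genes at an unadjusted p under 0.05. Mrps9 had -0.15 ± 0.0637, Mrps2 0.13, Mrpl47 -0.11, Mrps25 0.10 and Mrps35 0.11, with an adjusted p = 0.795. The member median of 0.038 was 0.0065 when MS ko P66 animal C1-56 was left out. It turned negative in cohort 2 alone (-0.061, against 0.073 in cohort 1) and with the cytosolic ribosomal protein score (-0.013), and was 0.025 with choroid plexus and myelin scores and 0.0029 without the libraries far in the choroid plexus score.

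Separation in adults came nearest to a call, through Mrpl9 (bL9m, at the base of the L1 stalk of the large subunit). In Ctr wt animals Mrpl9 ran from 79.2 to 90.02 CPM (median 82.1), in MS wt from 87.6 to 97.7 (92.2), in Ctr ko from 75.8 to 89.9 (85.2) and in MS ko from 81.5 to 101.8 (88.3). Separated animals of each genotype were higher at the median, and ranges overlapped in both. The log2 difference was 0.12 ± 0.0316 (SE, 17 separated against 14 control animals), 0.14 in wildtype and 0.10 in knockout animals, with an edgeR adjusted p = 0.101. DESeq2 gave an adjusted p = 0.0313, and without MS ko P66 animal C2-53 edgeR gave 0.0428; over all other settings and left-out libraries the value ran up to 0.649. Mrps15 was lower in separated animals by a log2 value of -0.07 ± 0.0253, and Mrps14 (0.08), Mrps25 (0.08) and Mrpl51 (0.09) were higher, none of them called. By edgeR 0 members passed, against 0.371% of genes. With DESeq2 1 member and 98 of 7001 genes passed, and with limma-voom 0 members and 33 genes. An unadjusted p under 0.05 was found for 9 members and 12.2% of genes. The median over members was 0.032, with 25 of 36 positive, against 48.3% of all genes (median -0.0027). Positive signs were also seen for 32 of 36 oxidative phosphorylation and 34 of 36 cytosolic ribosomal protein genes. The member median was 0.012 in wildtype (26 positive, against 50.15% of all genes) and 0.056 in knockout animals (25 positive, against 46.4%). Over both it was 0.018 with choroid plexus and myelin scores as covariates, where calls over all genes went from 26 to 0, 0.016 with the cytosolic ribosomal protein score, 0.020 in cohort 2 alone and 0.019 with library totals alone. Myelin markers were positive for 8 of 8 (median 0.18) and choroid plexus markers negative for 8 of 8 (median -0.28), none of them called, and their part was not tested. None of the 117 tested genes of the 8 other mitochondrial and ribosomal lists passed in any of the 6 comparisons within an age.

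**Figure D4:**
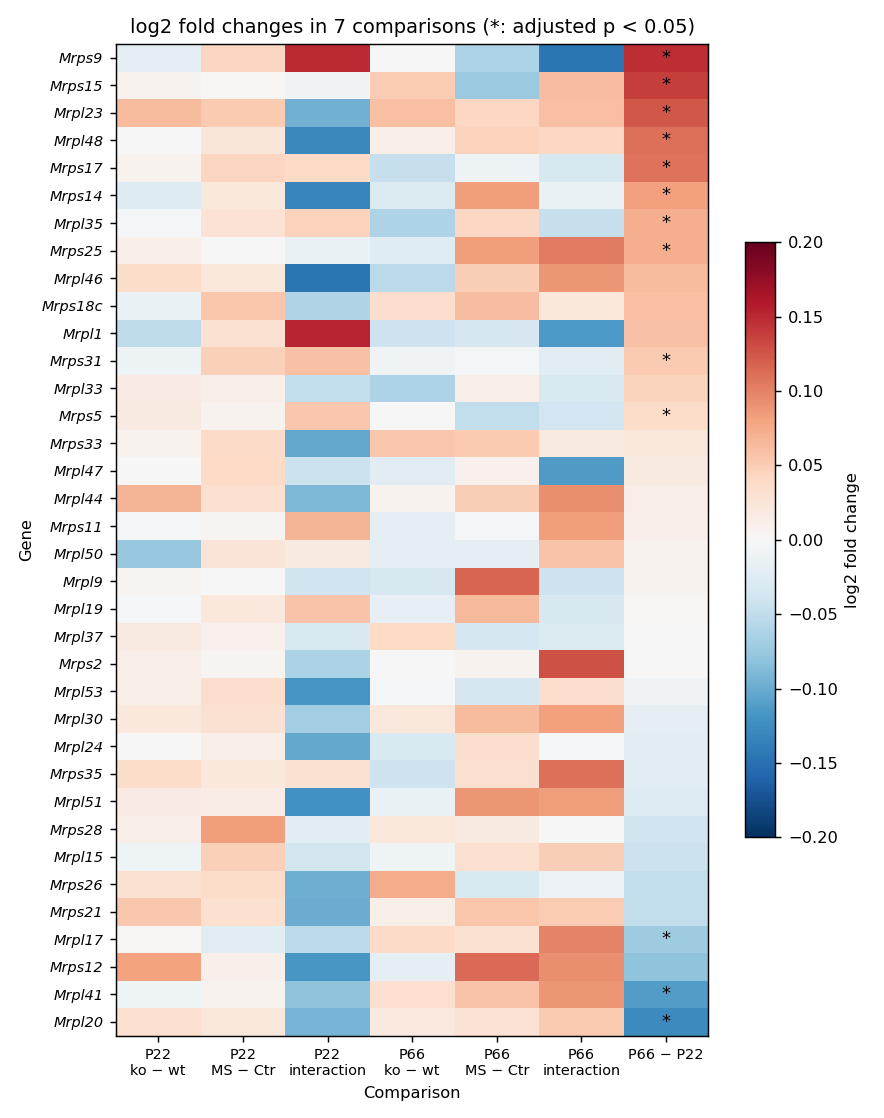
Log2 fold changes of the 36 members (rows, ordered by age change) in the 6 comparisons within an age and for age (columns); red is higher and blue lower in the first-named group, and asterisks mark an adjusted p under 0.05. The 13 asterisks all stand in the age column, and the largest values within an age belong to the interactions. An interaction is a difference between separation effects, and its values ran wider over all genes too. At P22 their median size was 0.088 over all genes, against 0.041 for knockout and 0.029 for separation.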

How the data were processed

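The authors deposited raw counts of reads per gene, 1 column per animal. Per the submitters' processing notes, their tools were limma 3.34.9, edgeR, cutadapt 1.16 and FastQC 0.11.4. For the aligner, counter and build nothing is stated in the sources used here. The table as held ends on chromosome 8, and 1 broken record was left out. Positions follow GENCODE M21 (GRCm38), where all 36 members had the same coordinates. Of 272 pairs of libraries within groups, none differed by counting error alone (chi-square per degree of freedom of 4.6 or more).

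Counts were fitted with edgeR 4.0.16 quasi-likelihood in R 4.3.3 (TMM, filterByExpr with a minimum count of 10 and total of 15), with a term per group and for cohort, by age or over all 69 libraries for age. Knockout and separation effects average over the other factor. Adjustment was over all tested genes, and calls are at an adjusted p under 0.05. Alternatives were DESeq2 1.42.0, limma-voom 3.58.1, other scalings and filters, cohorts alone, covariate scores and left-out libraries. Scripts were tested on simulated data.

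Members and lists were chosen with earlier results of these data known. Named genes are called members (up to 8 each way), otherwise the 5 with the smallest p, the 3 highest and lowest per length, and up to 4 per list; Mrps31, Mrps5, Mrps12 and Sars2 were named after their values were seen.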

Additional observations from a re-analysis of the deposited data

Results flagged for a closer look

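Genes examined were the 13 members called for age, Mrpl9, Mrps12 and Sars2, and no other named gene. A set of values was 1 of these genes or the summed level in a group of 4 to 10 animals. MS wt P22, with 11 animals, was therefore not examined. Of 119 sets, 4 had 1 animal apart from the rest by Dixon's 95% criterion. Chance gives about 1 in 20, or 5.95. Ctr ko P22 animal C1-4 had 126.9 CPM of Mrps17, against 106.2 to 115.8 in the other 8. Ctr ko P66 animal C1-22 had 140.8 CPM of Mrps9, against 112.0 to 122.6 in the other 6. MS ko P66 animal C1-56 had 184.9 CPM of Mrpl48, against 147.5 to 163.3 in the other 6. MS ko P22 animal C2-23 had 105.4 CPM of Mrpl9, against 78.0 to 91.0 in the other 9. Of these 4 animals, C1-4, C1-56 and C2-23 are among the 5 libraries high in cytosolic ribosomal protein genes. None of the 180 interaction tests of members passed, and their smallest adjusted p was 0.30.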

How the results depend on the processing

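The count of 13 members called for age became 8 (4 rises, 4 falls) in cohort 2 alone. It became 21 (11 rises, 10 falls, all 13 kept) with the cytosolic ribosomal protein score as a covariate, added after seeing the data. Calls over all genes moved the same way, from 3707 of 7131 to 2786 of 7237 and 4258 of 7131. The cause was not tested. Under the other settings the count of called members was 9 to 16, and with 1 of 69 libraries left out 12 to 17. For separated minus control at P66 the count of 0 became 1 with DESeq2 (Mrpl9), which called 98 of 7001 genes. It ran from 0 to 1 with single libraries left out. The 5 other counts of 0 within an age were 0 under every setting run. Mrps9, Mrps15, Mrps17 and Mrpl48 passed for age under all 12 settings and with every library left out. Without a count filter Mrpl35, Mrps31 and Mrps5 did not pass. The P66 interaction reversed sign in cohort 2 alone for Mrps9 (0.0247) and Mrps35 (-0.000799). Scalings moved the median of all genes by at most 0.0131. The 2 settings that leave out libraries far in a score were also chosen after seeing the data. No paired analysis was possible because a number shared by 2 groups belongs to different animals. Depth of the full libraries is unknown, since totals cover only the part held.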
